A study of Homo sapiens with 12 samples.

Results

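The intervals described here are places on chromosomes 1 to 22 listed as peaks for an antibody to HOXA13 over input in HepG2. HepG2 is a human liver tumour cell line that the labels class as hepatocellular carcinoma. Being listed does not establish enrichment, since only 9.9% of the intervals reached a false discovery rate (q) of 0.05 or less. The intervals are all entries on these chromosomes in the peak list made from 1 HOXA13 chromatin immunoprecipitation (ChIP) library and 1 input library of the same untagged cells. These were 71316 of the 83156 entries in that list and of the 164693 entries in the 4 lists of the series. The titles of both libraries name no tag, transgene or treatment. Per the labels' protocols the chromatin of 4 dishes of cells was fixed with formaldehyde and sonicated to short fragments, and the antibody came from abcam. The series also holds a list for Huh7, another liver tumour line, with the same antibody, and lists for HepG2 and Huh7 cells stably transfected with HA-tagged HOXA13, made with an antibody to the HA tag. No source used here gives the promoter of the tagged construct or the number of clones. The 4 mouse IgG libraries were not analysed here. Each list rests on 1 ChIP library, so no difference below has a replicate check. Errors on folds cover counting of ChIP fragments only, and errors on shares and densities cover counting of intervals only. The latter treat intervals as independent, although many lie in clusters, so these errors may be too narrow. The files hold no measure of HOXA13 protein or RNA, so the label could not be checked against the level of the factor.

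HOXA13 is a homeodomain transcription factor encoded at one end of the HOXA cluster. It patterns the distal limb, the hindgut and the genital tract in the embryo, and is known to be raised in liver cancers. In ChIP with sequencing, fragments bound by a factor pile up over its sites, and input shows where fragments pile up without any antibody. Sequence present in many copies, such as the satellite DNA beside centromeres and the ribosomal RNA genes of the acrocentric short arms, gathers fragments in both. Positions are printed 1-based on GRCh37, the build that the sequence names of the list belong to. No genes or sequences are named at the intervals, because no annotation or sequence of that build was used here.

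Most intervals were shallow. The authors' deposited fold is taken at the summit, the highest point of an interval, and divides the ChIP pileup by the input-based expectation after adding 1 to each. The median fold was 2.85, and the lowest was 1.59. The median interval stood on 7 ChIP fragments at its summit, and 73.1% of intervals stood on 6 to 8. The expected pileup was at a fixed background level of 1.73 in 61.0% of intervals. At that level a pileup of 5 gave 2.20-fold (0.961 to 4.64, 95% Poisson interval), 7 gave 2.93-fold (1.40 to 5.65) and 10 gave 4.04-fold (2.12 to 7.10). A single further fragment thus moved an interval by a whole step of fold, and neighbouring steps had overlapping intervals.

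Few intervals passed a stricter limit. A q of 0.05 or less was reached by 7059 intervals (9.9% of 71316), and 3-fold or more by 18684 (26.2%). Strong intervals, those with a −log10 q of 5 or more, numbered 334 (0.468%). Intervals of 5-fold or more numbered 70 (0.0982%), and those of 10-fold or more numbered 6 (0.00841%). In the other lists 5-fold was reached by 10.8% of HepG2 anti-HA, 0.0741% of Huh7 anti-HA and 2.01% of Huh7 anti-HOXA13 intervals. All of the 25 intervals of highest fold were strong, at a −log10 q of 5.89 or more, but most strong intervals were below 5-fold. The strong intervals had a median fold of 3.20, and 262 of the 334 lay on raised input, meaning an expected pileup of over 3 times the background. Of the 70 intervals of 5-fold or more, 12 lay on raised input (17.1%, 9.18 to 28.03%, exact 95% binomial interval) and 58 did not (0.0813% of all intervals).

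**Figure D1:**
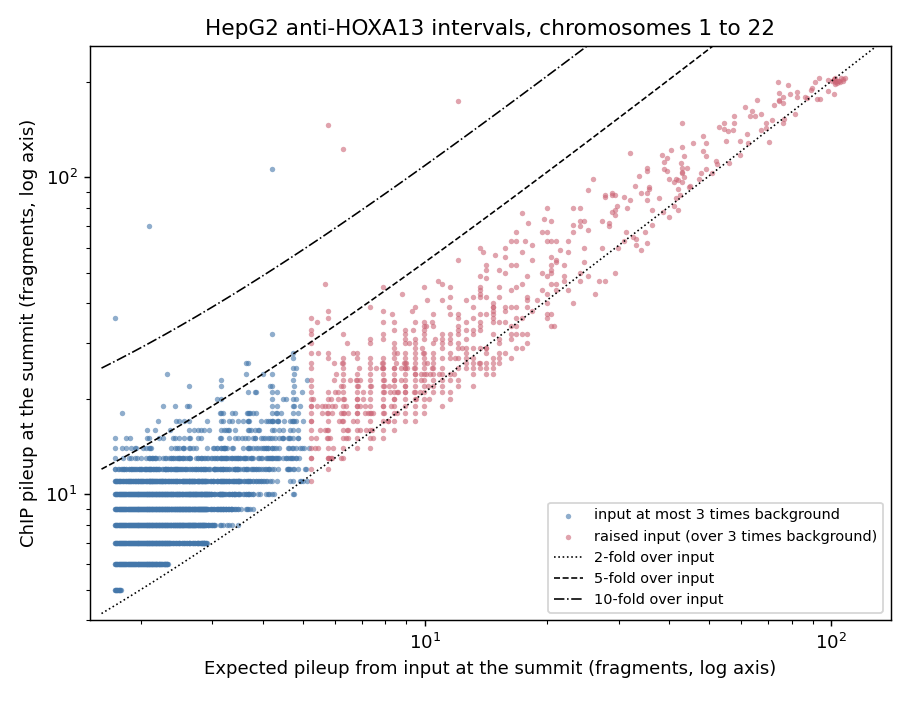
ChIP pileup against the pileup expected from input at each summit, both in fragments on log axes, with 1 point for each combination of values found among the 71316 intervals. Lines mark 2-, 5- and 10-fold over input; 6 intervals lie above the 10-fold line, and the pileup stops at 206 fragments.

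The pileup had a ceiling. The highest ChIP pileup was 206, which is exactly 2 times the shortest interval of 103 bp, and 7 intervals sat at that value. The same relation held in both other lists whose pileups could be solved, with 270 for a shortest interval of 135 bp in HepG2 anti-HA and 228 for 114 bp in Huh7 anti-HA. A pileup of this size is the most that can arise where 1 read is kept per position and strand and each read is extended to the shortest interval length; whether the authors did so is not stated. Fold at high input was bounded by the ceiling: where 100 fragments were expected, the highest fold possible was 2.05. In all, 27 intervals stood at 90% of the ceiling or more, on an expected pileup of 74.0 to 108. All 27 had raised input, 22 of them lay on chromosome 16, and their folds ran from 1.87 to 2.68.

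The 6 intervals of 10-fold or more lay at 5 loci, and each overlapped a HepG2 anti-HA interval, against 2.04% of all 71316 intervals. The highest was chromosome 12, 20704355 to 20704503, with a pileup of 70 where 2.10 was expected, which is 22.9-fold (17.9 to 28.9). Its summit lay 75 bp from the start of an interval 149 bp wide, and 16 bp from the summit of the HepG2 anti-HA interval there, which stood at 6.55-fold. Chromosome 1, 91852784 to 91853110, had a pileup of 146 over 5.77, or 21.7-fold (18.3 to 25.5), on raised input. Chromosome 8, 70602343 to 70602530, had a pileup of 106 over 4.20, or 20.6-fold (16.9 to 24.9). The 2 antibodies placed its summit 1 bp apart and gave it nearly equal folds, with 19.95 in HepG2 anti-HA. The folds of these 3 intervals overlap within counting error, and no Huh7 list held any of them. They were 149, 327 and 188 bp wide, above the median width of 130 bp.

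Chromosome 21 carried a pair of the high intervals 256 bp apart, on the short arm of an acrocentric chromosome. The first, 9825441 to 9826456, stood at 16.99-fold (14.1 to 20.2) with a pileup of 123 over 6.30. The second, 9826713 to 9833645, stood at 13.4-fold (11.5 to 15.5) with a pileup of 174 over 12.1, and at 6933 bp it was the widest interval of all. Its summit lay 424 bp from its start, in the part nearest to the first interval. A single HepG2 anti-HA interval of 38.0-fold overlapped both, and Huh7 anti-HA overlapped them at 12.9-fold and 1.96-fold. Chromosome 5, 71146750 to 71146877, was the only one of the 6 at the background input level, with a pileup of 36 over 1.73 and 13.6-fold (9.62 to 18.6). It was also the only one overlapped in Huh7 anti-HOXA13, at 5.14-fold with the summit 6 bp away. Raised input lay under 3 of the 6. Whether these 5 loci hold sequence present in many copies, such as copies of ribosomal RNA sequence, which can gather fragments with any antibody, was not tested. No list of such regions was used here, so neither the high folds nor the summits shared by both antibodies show that HOXA13 was bound there.

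**Figure D2:**
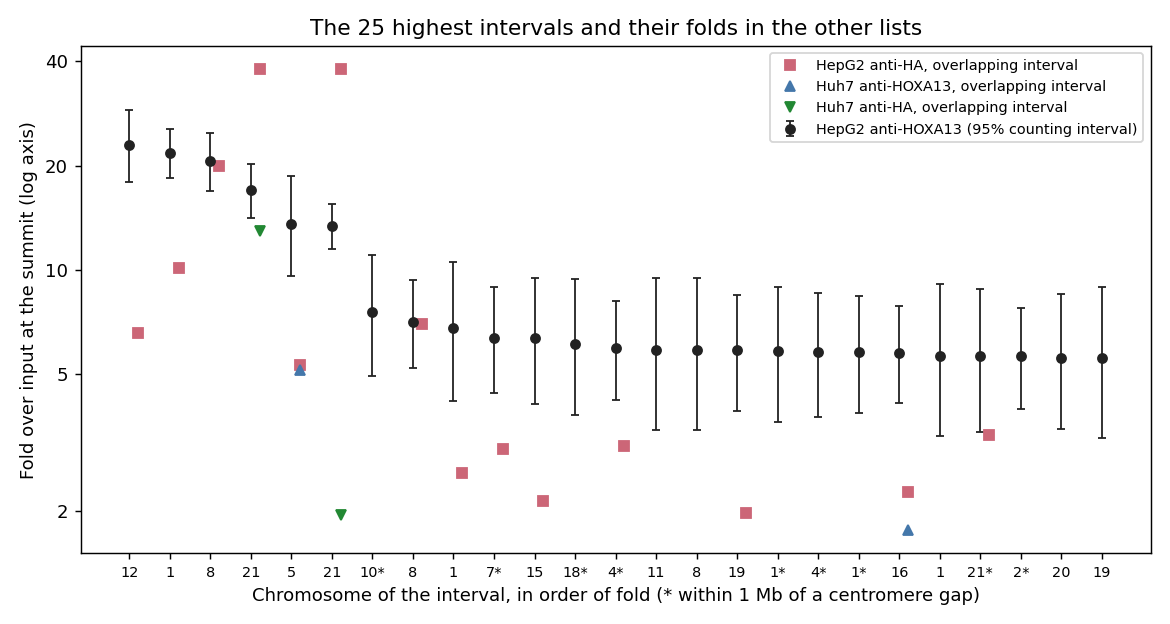
Fold over input at the summit (log axis) of the 25 highest intervals, in order, with 95% counting intervals, and the fold of any overlapping interval in the other 3 lists. The first 6 lie at 13.4-fold or more and the seventh at 7.52-fold. The counting intervals of the fifth (chromosome 5) and the seventh still overlap. From the seventh on the intervals overlap one another, and 11 of the 25 meet no other list.

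Below these 6 the folds dropped to 7.52, and the other 19 of the 25 highest intervals could not be ordered within their counting error. They lay between 5.55- and 7.52-fold, on pileups of 15 to 46. Chromosome 10, 42356603 to 42357217, led them at 7.52-fold (4.93 to 11.04), from 24 fragments over 2.32, and lay 0.00161 Mb from the centromere gap. Its counting interval overlaps that of chromosome 5 among the 6 (9.62 to 18.6), so the drop is not fully clear of counting error. Chromosome 8, 82754626 to 82754832, followed at 7.04-fold (5.19 to 9.34) on raised input, with 6.98-fold in HepG2 anti-HA and summits 8 bp apart. Chromosome 1, 2602015 to 2602855, stood at 6.80-fold (4.18 to 10.5), far from any centromere, with 2.58-fold in HepG2 anti-HA. Of the 19, 9 lay within 1 Mb of a centromere gap, 8 overlapped a HepG2 anti-HA interval, 1 a Huh7 anti-HOXA13 interval and none a Huh7 anti-HA interval, and 11 met no other list. Over all 71316 intervals, 3.79% lay that near a gap, and these lists overlapped 2.04%, 0.352% and 0.508%, in the same order.

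The highest interval of each chromosome ran from 4.58-fold on chromosome 3 to 22.9-fold on chromosome 12. On 8 of the 22 chromosomes it lay within 1 Mb of the centromere gap, and on 12 it overlapped a HepG2 anti-HA interval. Chromosomes 3, 6, 9, 13, 14, 17 and 22 held no interval of 5-fold. On chromosome 6 the highest, 15116527 to 15116775, had 12 fragments over 1.73 and 4.77-fold (2.64 to 8.06), and chromosome 13, 111778587 to 111778714, had the same pileup and fold. On chromosome 14 it lay at 30649377 to 30649508 with 4.84-fold (2.79 to 7.90). None of these 3 was overlapped in another list.

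Away from centromeres and raised input, 39 intervals of 5-fold or more remained. These lay over 1 Mb from a centromere gap and on an expected pileup of at most 3 times background, and their pileups had a median of 15. Chromosome 20 held 9 of them (23.1%, against 10.0% of all 71316 intervals) and chromosome 19 held 7 (17.9%, against 1.76%). Chromosomes 1 and 2 held 6 each (15.4%, against 6.71% and 16.3% of all intervals). The 9 on chromosome 20 lay between 38723467 and 60447612, at 5.12- to 5.56-fold on 13 to 19 fragments, and none overlapped a HepG2 anti-HA interval. The 7 on chromosome 19 lay in short stretches, from 36773460 to 36785108 and from 37770728 to 37793364. Of the 7, 4 overlapped a HepG2 anti-HA interval. The highest of the 7 was 36782048 to 36782468, at 5.84-fold (3.89 to 8.46) from 26 fragments over 3.62, with 1.98-fold in HepG2 anti-HA. The long arm of chromosome 19 is known for clusters of zinc finger genes. Which genes lie at these intervals was not analysed here. Chromosome 19 also held 22 of the 72 strong intervals without raised input. The window from 36700001 to 36800000, singled out after its values were seen, held 16 strong intervals of 3.30- to 5.84-fold on 21 to 30 fragments. Their expected pileup was 3.62 to 8.40, with a median of 4.27 against a background of 1.73, and 2 of the 16 had raised input. In that window HepG2 anti-HA held 33 intervals, of which 2 were strong, and Huh7 anti-HOXA13 held 2, neither of them strong. On chromosome 1, 3 of the 6 lay within one short stretch, from 2596645 to 2603806. Both of the chromosome 12 intervals were overlapped elsewhere: the second, 133779619 to 133780113, stood at 5.29-fold (3.05 to 8.63), and at 7.94-fold in Huh7 anti-HOXA13 with its summit 410 bp away. Chromosome 1, 40928956 to 40929351, stood at 5.16-fold (3.03 to 8.31) and at 4.77-fold in Huh7 anti-HOXA13, with summits 11 bp apart. Of the 39, 10 met HepG2 anti-HA, 4 met Huh7 anti-HOXA13, none met Huh7 anti-HA and 26 met no other list. Over all 71316 intervals these lists overlapped 2.04%, 0.352% and 0.508%, in the same order.

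Closeness to centromeres rose with fold over the lower classes. The centromere gap of a chromosome was taken as its long stretch with no interval in any list. Within 1 Mb of it lay 3.25% (3.10 to 3.41%) of intervals below 3-fold, 4.87% (4.55 to 5.20%) from 3- to 4-fold, 9.71% (8.19 to 11.4%) from 4- to 5-fold and 34.4% (22.9 to 47.3%) from 5- to 10-fold. None of the 6 intervals of 10-fold or more lay there, but the chromosome 21 pair lay just past the limit, at 1.36 and 1.35 Mb. Without raised input the shares were 2.63%, 4.43%, 8.74% and 34.5% in the same order. Of the 1054 intervals with raised input, 450 lay within 1 Mb of a gap (42.7%, 39.7 to 45.7%), against 3.79% of all intervals.

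**Figure D3:**
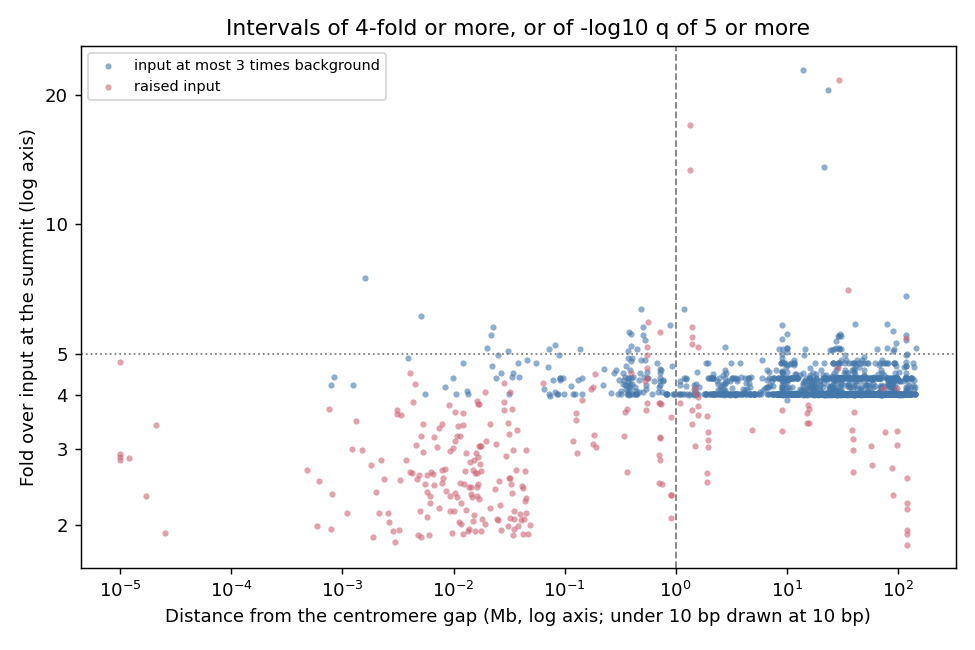
Distance from the centromere gap in Mb (log axis) against fold over input (log axis) for intervals that reached 4-fold or a −log10 q of 5, with raised input in red; lines mark 1 Mb and 5-fold. Strong intervals with raised input crowd within 0.1 Mb of a gap at low fold. The 6 intervals of 10-fold or more lie beyond 1 Mb, the nearest at 1.35 Mb.

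Most strong intervals lay near these gaps, and the 5 windows of 100 kb with the most of them lay at gap edges. Of the 334, 231 lay within 1 Mb of a gap and 181 within 100 kb, and 131 (39.2%) lay in those 5 windows. The strong intervals were spread over 88 windows of 100 kb in all, and 56 had no strong neighbour within 10 kb. The first window, on chromosome 16 from 46400001 to 46500000, held 33 strong intervals of 1.90- to 3.71-fold, on 86 to 206 fragments where 26.0 to 106 were expected. Chromosome 8 held 27 in the window from 43800001 and another 27 in the window from 46800001, on the far side of its centromere gap, with median folds of 2.38 and 2.45. Chromosome 5 held 26 in the window from 49400001, with a median fold of 3.18. Chromosome 17 held 18 in the window from 22200001, with a median fold of 2.99. Raised input lay under every one of these 131 intervals. The HepG2 anti-HA list held 28, 22, 23, 18 and 14 strong intervals in these windows, in the same order, whereas Huh7 anti-HOXA13 held none and Huh7 anti-HA held 7, 3, 2, 1 and 2. Over the whole lists, 69.2% (63.9 to 74.1%) of strong intervals lay within 1 Mb of a gap here, where strong intervals were 0.468% of the list. For HepG2 anti-HA the share was 2.52% (2.17 to 2.91%), with 21.2% of that list strong. In counts this was 182 of 7216 strong intervals, against 231 of 334 here. For Huh7 anti-HA it was 16.04% (9.63 to 24.4%), with 0.374% of that list strong. For Huh7 anti-HOXA13 it was 2.26% (0.832 to 4.84%), with 2.6% of that list strong. Among strong intervals without raised input the share here was 30.6% (20.2 to 42.5%), 22 of 72. Chromosomes 3, 14 and 22 held no strong interval.

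The intervals were short, and the place of the summit differed between widths. The shortest width, 103 bp, was shared by 30.8% (30.5 to 31.2%) of intervals, the median was 130 bp and 95 of 100 were no longer than 259 bp. The other lists held 15.5% (HepG2 anti-HA), 20.5% (Huh7 anti-HA) and 16.6% (Huh7 anti-HOXA13) of their intervals at their own shortest width. Summits lay in the central 33.3% of the interval in 46.0% (45.6 to 46.3%) of cases, and in 65.7% (64.9 to 66.5%) of intervals longer than 130 and up to 160 bp. In intervals longer than 200 and up to 300 bp the count was 1817 of 8652 (20.1 to 21.9%), and 80.8% of their summits lay between 10 and 40% or between 60 and 90% of the width. In that class the summits fell to either side of the centre. A q of 0.05 was reached by 4.37% of intervals at the shortest width, by 16.4% of the others up to 130 bp and by 7.30 to 10.98% in the classes from there to 300 bp. Among the 241 intervals over 500 bp it was reached by 66.0%. Raised input lay under 32.4% of those 241 and under 0.218% of those at the shortest width. Of the 12 widest intervals, 7 lay on chromosome 16 within 0.0464 Mb of its centromere gap, at 1.87- to 2.19-fold, and 2 lay on chromosome 21.

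**Figure D4:**
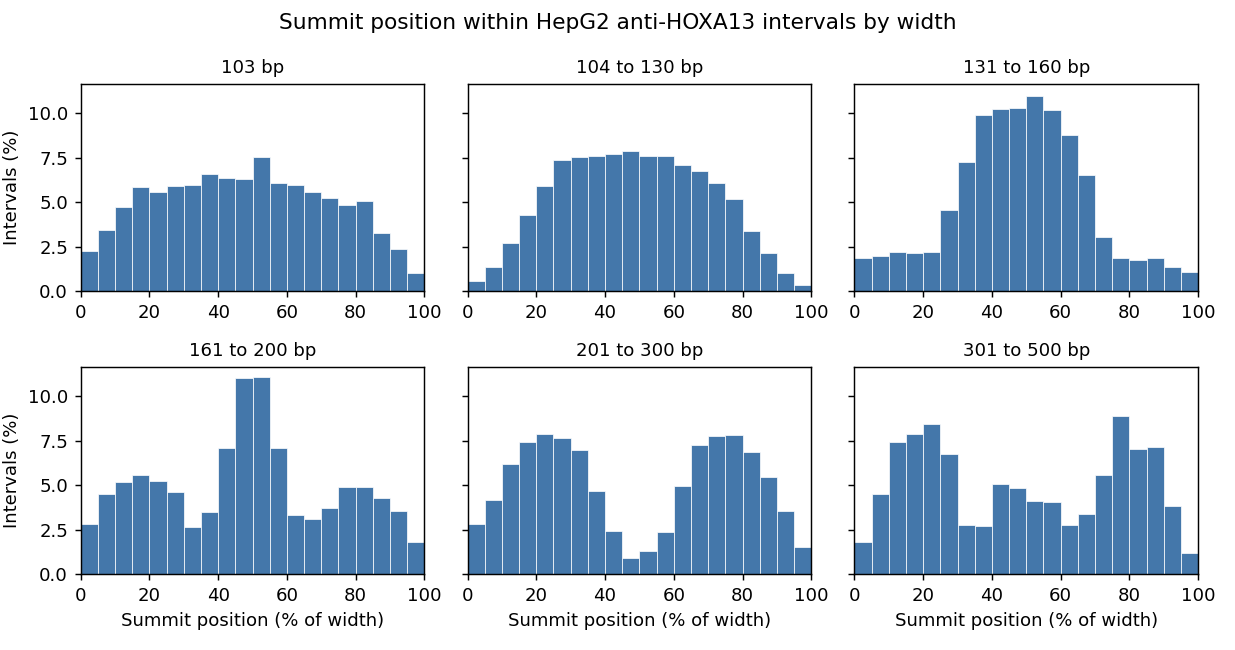
Position of the summit within the interval, in percent of its width, for 6 classes of width; bars give the percent of the intervals of that class in twentieths of the width. The summit is most often central in the class ending at 160 bp and splits into 2 flanking humps in the class ending at 300 bp.

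The intervals were spread unevenly over the chromosomes. Chromosome 2 held the most, 11589 or 16.3%, and chromosome 20 the densest set, with 7144 intervals at 119 per Mb, 5.72 times (5.58 to 5.85) the median autosome. Chromosome 16 held 67.0 per Mb, chromosome 2 held 48.5, chromosome 21 held 36.4, chromosome 6 held 35.6 and chromosome 14 held 35.4. The sparsest, chromosome 13, held 14.9 per Mb. Chromosome 20 intervals reached q of 0.05 in 15.4% of cases, against 9.9% on all 22 chromosomes, yet only 7 of them were strong. This share was not the highest: it was 19.95% on chromosome 21, 14.6% on chromosome 19 and 5.68% on chromosome 3.

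The input level differed between the same chromosomes. On chromosome 20 the expected pileup was at background in 34.8% (33.7 to 35.9%) of intervals, and its median was 2.04. On chromosome 16 the share was 45.4%, on chromosome 21 it was 46.1%, on chromosome 2 it was 47.5%, on chromosome 17 it was 48.8% and on chromosome 6 it was 51.5%. It was 83.7% (81.5 to 85.8%) on chromosome 18 and at least 73.8% on each of chromosomes 3, 4, 5, 7 to 13 and 15. The 5 densest chromosomes, 20, 16, 2, 21 and 6, were thus among those with the lowest shares on background input. Chromosome 17 had a low share at only 27.3 intervals per Mb, and chromosome 14 had 62.0%. The number of copies of each chromosome in these cells was not tested.

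**Figure D5:**
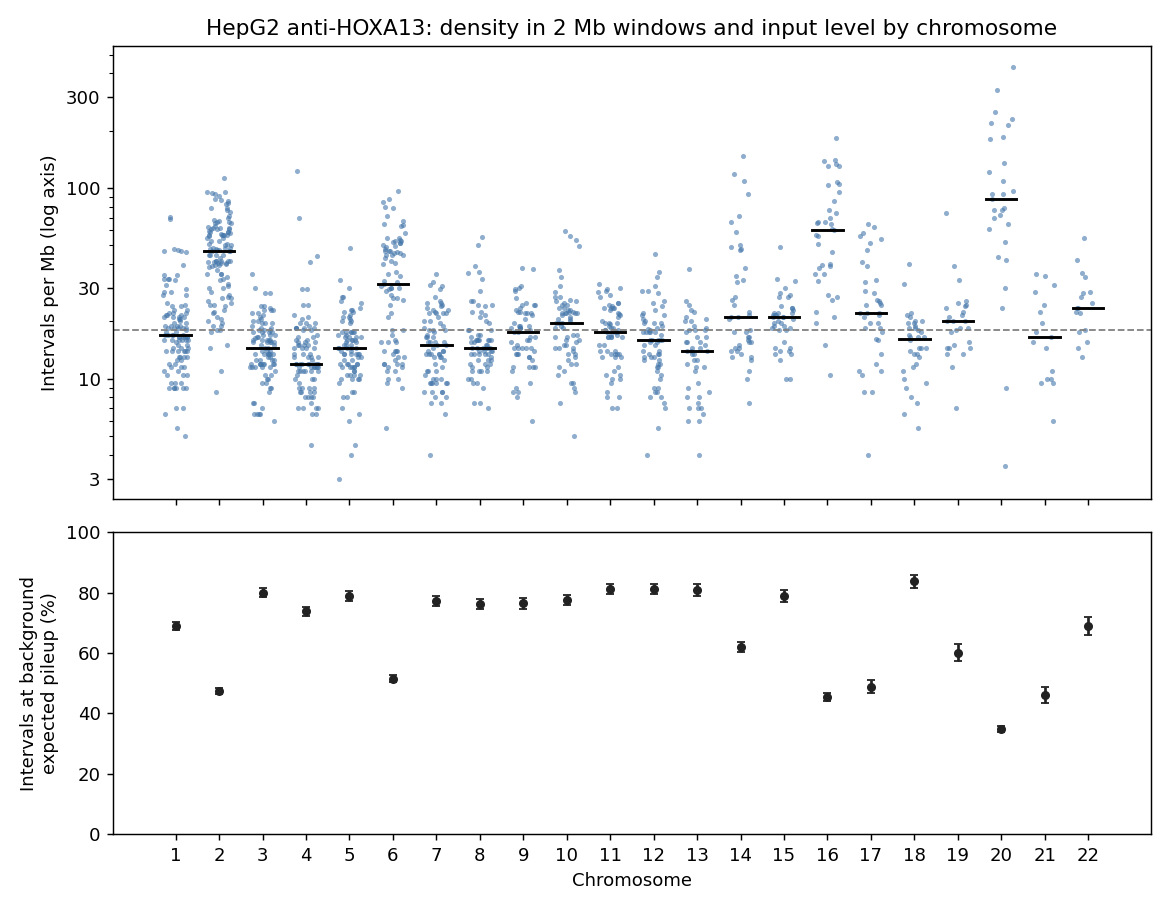
Upper panel, intervals per Mb (log axis) in 1329 windows of 2 Mb, by chromosome, with the median of each chromosome as a bar and the median window of 18 per Mb as a dashed line. Lower panel, percent of intervals on background input with exact 95% intervals; chromosome 20 is highest in the upper panel and lowest in the lower.

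Within chromosomes the density changed in long blocks. Windows of 2 Mb held from 3 to 434 intervals per Mb, and of the 228 windows at 2 times the median or more, 193 lay on chromosomes 2, 6, 14, 16, 17 and 20. The other autosomes held 979 of the 1329 windows. This set is not a ranking by density: chromosome 17, at 1.31 times the median autosome, is in it and chromosome 21, at 1.74 times, is not. Runs of at least 10 Mb in which every window held 1.5 times the median or more numbered 18, on 6 chromosomes. They made up 13.4% of the covered length and held 34.6% of the intervals. On chromosome 14 such a run went from 20 to 44 Mb with 73.7 intervals per Mb, against 18.8 on the rest of the chromosome. On chromosome 1 a run from 224 to 248 Mb held 41.9 per Mb, against 17.2 on the rest. All 3 other lists were denser in these 2 runs as well. On chromosome 14 HepG2 anti-HA held 29.8 per Mb against 10.2 on the rest, Huh7 anti-HA 11.8 against 7.48 and Huh7 anti-HOXA13 4.67 against 2.16. On chromosome 1 the values were 19.5 against 9.61, 17.8 against 10.3 and 6.88 against 3.74, in the same order. Over the 18 runs, HepG2 anti-HA was denser than on the rest of the chromosome in 14 and sparser in 4, and each Huh7 list was denser in 8 and sparser in 10.

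On chromosome 20 the block from 36 to 62 Mb held 171 intervals per Mb and that from 0 to 26 Mb held 93.8. HepG2 anti-HA differed less between them, with 42.8 and 39.8 per Mb, and the Huh7 anti-HOXA13 list went the other way, with 1.62 and 7.52. The denser block had background input under 43.2% of its intervals and the other under 22.4%, so within this chromosome the denser block was the one with more intervals on background input. The opposite order of density held on chromosome 16, where the run from 46 to 68 Mb held 69.2 per Mb with 67.5% on background input, and that from 4 to 14 Mb held 95.1 per Mb with 21.03%. Across the 1329 windows the density correlated with that of HepG2 anti-HA at Pearson r of 0.69 (Spearman rho 0.56), with Huh7 anti-HA at r of −0.09 (rho −0.01) and with Huh7 anti-HOXA13 at r of −0.04 (rho 0.05). Off chromosomes 2, 6, 14, 16, 17 and 20 the rho with HepG2 anti-HA was 0.31 over 979 windows. Mappability and base composition, which windows share between lists, were not measured, and their part in these values was not tested.

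The densest block lay near the end of the long arm of chromosome 20. The window from 58 to 60 Mb held 867 intervals, 24.1 times the median window, of which 3 were strong. Chaining intervals that lay within 10 kb of each other gave an unbroken chain of 634 intervals over 1026 kb, from 59507385 to 60533705. Its median fold was 2.93 on background input, its highest was 5.56, only 2 of its intervals had raised input and 2 were strong. HepG2 anti-HA held 105 intervals in the same stretch, Huh7 anti-HOXA13 none and Huh7 anti-HA 1. The chains with the next most intervals held 269 on chromosome 21, from 10698483 to 11001228, and 247 on chromosome 20, from 56215865 to 56690889. The chromosome 21 chain had a median expected pileup of 2.36, with 8 raised intervals, and HepG2 anti-HA held 135 intervals there against 0 and 2 in the Huh7 lists. Of the 10 chains with the most intervals, 7 lay on chromosome 20, 2 on chromosome 21 and 1 on chromosome 16.

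Over all chromosomes, 60.5% (60.1 to 60.8%) of intervals had a neighbour within 10 kb, and the median distance to the nearest was 6.32 kb. The share was 93.6% on chromosome 20, 87.1% on chromosome 16 and 33.4% on chromosome 3. Strong intervals were closer still, at a median of 0.416 kb, and 83.2% (78.8 to 87.1%) had a strong neighbour within 10 kb. Intervals of 5-fold or more were mostly alone: 28.6% (18.4 to 40.6%) had another such interval within 10 kb, and 50 of the 70 stood singly. The other lists are shorter, so their neighbour shares of 40.1% (HepG2 anti-HA), 33.0% (Huh7 anti-HA) and 15.7% (Huh7 anti-HOXA13) are not comparable in size.

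Overlap with HepG2 anti-HA was rare among shallow intervals and more frequent in the higher fold classes, and overlap with both Huh7 lists was lower. Over all 71316 intervals, HepG2 anti-HA overlapped 2.04%, Huh7 anti-HOXA13 0.352% and Huh7 anti-HA 0.508%. Those lists held 34089, 10246 and 28346 intervals on these chromosomes, so their overlaps are not comparable in size. HepG2 anti-HA overlapped 1.74% (1.63 to 1.85%) of intervals below 3-fold, 2.49% (2.26 to 2.74%) from 3- to 4-fold, 6.25% (5.03 to 7.68%) from 4- to 5-fold and 31.3% (20.2 to 44.1%) from 5- to 10-fold. Without raised input these shares were 1.10%, 2.06%, 5.30% and 23.6%. The median width was 132 bp below 3-fold and 217 bp from 5- to 10-fold, and the shares were not adjusted for width. Raised input by itself went with overlap: 42.5% (39.5 to 45.6%) of the 1054 intervals with raised input met HepG2 anti-HA, against 1.43% (1.35 to 1.53%) of the others. Strong intervals with raised input met HepG2 anti-HA in 203 of 262 cases, with summits a median of 15 bp apart. Strong intervals without it did so in 28 of 72, with summits a median of 91 bp apart. Huh7 anti-HOXA13 overlapped 15 of the 334 strong intervals (4.49%, 2.54 to 7.30%). Huh7 anti-HA overlapped 82 of the 262 strong intervals with raised input and 1 of the 72 without it. For Huh7 anti-HOXA13, which used the same antibody, the overlap was 0.319% (0.273 to 0.371%) below 3-fold and 6.25% (1.73 to 15.2%), 4 of 64, from 5- to 10-fold.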

How the data were processed

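The authors' deposited lists are MACS2 narrowPeak files, and the submitters' processing notes name BWA and MACS2 without version or settings. The notes name GRCh38, but the sequence names (hs37d5, GL000 contigs) are those of GRCh37 with decoy, so positions are given as GRCh37. The deposited columns hold fold (ratio of ChIP to expected pileup at the summit, 1 added to each), −log10 p, −log10 q, a score of 10 times the −log10 p, and the summit offset in bp, which is none of these units. The lowest deposited −log10 p was 2.00. The labels' protocols state 50 M reads per sample; the lists give no totals.

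Pileup and expected pileup were solved from the deposited fold and p as MACS2 defines them, and the pileup was whole for 100% of these intervals. It could not be solved for Huh7 anti-HOXA13, where the ChIP pileup was not whole, so no input class is given for that list. Centromere gaps were the longest inner interval-free stretch of each chromosome or, with none of 2.9 Mb, the stretch before the first interval. Covered length left out inner stretches of 1 Mb or more without intervals. Overlap needed 1 bp. Shares carry exact (Clopper-Pearson) 95% intervals and folds 95% Poisson intervals of the pileup, with the expected pileup held fixed. No test was made, since each condition has 1 library. Named regions were the 25 highest folds, the highest per chromosome, and the 5 windows of 100 kb with most strong intervals. The members, rules and lists were chosen with earlier results of these data known; the pileup ceiling, dense runs, chains and the 39 intervals away from centromeres were chosen after seeing the values. Genes were to be assigned only from an annotation of the same build, and none was used. Calculations ran in Python 3.11.15 with scipy 1.17.1, numpy 2.4.6 and pandas 2.3.3, were plotted with matplotlib 3.10.9, and were tested on simulated data.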

Additional observations from a re-analysis of the deposited data

Results flagged for a closer look

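The same list held entries outside chromosomes 1 to 22, which no comparison above used. The decoy sequence, hs37d5, held 9857 intervals, of which 31.9% (31.0 to 32.8%) were strong, against 0.468% on chromosomes 1 to 22. Raised input lay under 39.2% of them. The unplaced GL000 contigs held 1299 intervals, of which 244 were strong (18.8%, 16.7 to 21.02%). One of these contigs, GL000220.1, which carries ribosomal RNA gene sequence, held the highest fold outside the chromosomes, 15.99, and an interval 34997 bp wide. No IgG list was analysed here, so these values were set against input alone.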

How the results depend on the processing

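Of 21 alternatives, 17 planned and 4 added after the data were seen, 7 stayed within the counting interval of the reported value. At q of 0.05 or less, chromosome 20 density rose from 5.72 to 10.4 times the median autosome, the share at the shortest width went from 30.8 to 13.6% and that of central summits from 46.0 to 64.6%. Against the mean of the other autosomes the density ratio was 4.76, and without intervals near centromere gaps 5.87. Within 10 bp of the shortest width lay 38.5%, and the central 50% of the width held 64.4% of summits. Neighbours within 5 kb and 50 kb were found for 44.8 and 91.1%; within 10 kb the share was 60.1% without raised input and 43.0% without chromosomes 2, 6, 14, 16, 17 and 20. By −log10 q of 5 in place of 5-fold, 69.2% and not 31.4% lay near a gap. Overlap of 5-fold intervals with HepG2 anti-HA, 37.1% as reported here, was 24.3% for summits within 100 bp and 25.7% with both lists held to q of 0.05. No paired analysis was possible because each condition has 1 library. Depth limits single folds: at background input a 5.14-fold interval rests on 13 fragments.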

Other observations

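The mitochondrial genome formed 1 interval of 16539 bp at 1.92-fold in this list, on raised input. Chromosome Y held 409 intervals, of which 157 were strong, with a highest fold of 9.34, and chromosome X held 274, of which 51 were strong, with a highest fold of 4.40. Raised input lay under 39.9% (35.1 to 44.8%) of the Y and 33.2% (27.7 to 39.1%) of the X intervals, against 1.48% on chromosomes 1 to 22.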
